A study of Homo sapiens with 12 samples.

Results

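The 8 genes described here, PIK3CA, PIK3CB, PIK3R1, AKT1, AKT2, MTOR, TSC2 and FOXO3, form the core of the pathway from phosphoinositide 3-kinase (PI3K) to AKT and mTOR. They were taken by symbol from a table of 61044 gene IDs, and all 8 were found and passed the filter on low counts, which left 17532 genes for testing. RNA had been sequenced from SCC-15, an established cell line from a human oral squamous cell carcinoma, as 12 libraries in 4 groups of 3. The control group (NC) carried a negative-control short hairpin RNA, and the groups shRNA1, shRNA2 and shRNA3 each carried another hairpin against FMOD, which encodes fibromodulin, a small proteoglycan of the extracellular matrix. All cells were grown in serum-containing medium and harvested 48 hours after treatment, and the series title links FMOD to signalling by the EGF receptor, a route into PI3K. Nothing in the labels says that the 3 libraries of a group came from separate cultures, so the p-values measure the spread between libraries, which may be technical.

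When a growth factor receptor is active, PI3K, a dimer of a catalytic and a regulatory subunit, phosphorylates a membrane lipid, and that lipid recruits the kinase AKT to the membrane, where it is switched on. AKT then phosphorylates TSC2, the brake on mTOR complex 1, and the FOXO transcription factors, which leave the nucleus and stop driving their target genes. In squamous carcinomas PIK3CA is a known site of gain and activating mutation, and the pathway is regulated mainly by phosphorylation, which RNA counts do not measure.

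The libraries held 17286934 to 19567192 counts. FMOD, the targeted gene, had 2 or 3 counts in each NC library and 0 in each of the 9 shRNA libraries. There the upper end of the 95% interval for a count of 0 was 0.189 to 0.213 CPM (counts scaled to a library total of 1000000). The level of FMOD was thus close to the detection limit in every group. NC libraries correlated with each other at r = 0.993 to 0.994 (log2 of CPM plus 1) and with shRNA libraries at 0.829 to 0.855. Nothing in the labels says whether NC and shRNA libraries came from the same parent culture or were sequenced together, so in every comparison with NC a difference of that kind cannot be told apart from the hairpins. In the shRNA3 group, library 3 correlated with shRNA1 and shRNA2 libraries at 0.979 to 0.988, and with libraries 1 and 2 of its own group at 0.916 and 0.919. Libraries 1 and 2 of shRNA3 also had the lowest scaling factors, 0.771 and 0.795, against 1.06 for library 3. Each shRNA3 call of a member is therefore given with and without libraries 1 and 2. Without them shRNA3 is 1 library, so p-values and calls of that fit rest on the spread within the other groups only. All 11 squamous epithelial markers were at or above 1 CPM in every group, with sums of 2786 to 3913 CPM, although single markers shifted in both directions. KRT5 went from 1008 CPM in NC to 21.4, 80.1 and 74.8 CPM with shRNA1, shRNA2 and shRNA3. CDH1 went from 322 CPM to 38.2, 53.4 and 66.0 CPM, and KRT14 from 7.58 CPM to 55.4, 24.5 and 149 CPM. The summed markers of other cell types were low. The 7 fibroblast markers summed to 56.7 to 59.8 CPM in NC and 15.5 to 86.5 CPM in shRNA libraries. In shRNA libraries nearly all of that sum was COL1A1. In NC the means were 41.7 CPM for COL1A1, 10.7 CPM for PDGFRB and 4.8 CPM for COL1A2. PDGFRB and COL1A2 reached no more than 1.29 and 0.206 CPM in any shRNA library. DCN was at 0 in NC and had no more than 5 counts elsewhere. The 5 leukocyte markers summed to 53.9 to 72.2 CPM in NC, 44.0 to 96.7 CPM with shRNA1, 80.1 to 85.7 CPM with shRNA2 and 109 to 236 CPM with shRNA3, nearly all of it CD68, while the pan-leukocyte marker PTPRC had no more than 9 counts in any library. The 4 endothelial markers summed to 17.6 to 23.1 CPM in NC and 3.88 to 13.2 CPM in shRNA libraries, and the 4 of skeletal muscle to no more than 6.45 CPM in any library. The part of such cells in the results was not tested. In bulk RNA, fewer cells of a type and less RNA per cell cannot be told apart.

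The promoter stretches of 3 genes are shown because AKT1 rose with every hairpin, while FOXO3 and MTOR were called with shRNA3, in opposite directions, and those 2 calls were lost without its libraries 1 and 2. They are the RefSeq sequences on GRCh38.p14, 150 bases upstream of the start site in RefSeq on each gene's own strand, and capitals mark the GC box, the letters GGGCGG or CCGCCC, which SP-family factors are known to bind. AKT1 is at chr14:104795752-104795901, minus strand, FOXO3 at chr6:108559675-108559824, plus strand, and MTOR at chr1:11262552-11262701, minus strand.
AKT1: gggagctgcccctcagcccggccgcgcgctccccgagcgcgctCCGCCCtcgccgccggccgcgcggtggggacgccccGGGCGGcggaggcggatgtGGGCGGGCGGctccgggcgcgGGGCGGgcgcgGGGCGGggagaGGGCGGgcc
FOXO3: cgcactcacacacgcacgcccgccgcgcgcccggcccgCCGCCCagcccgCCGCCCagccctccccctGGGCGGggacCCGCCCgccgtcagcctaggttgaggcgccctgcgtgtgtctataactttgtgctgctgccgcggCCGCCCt
MTOR: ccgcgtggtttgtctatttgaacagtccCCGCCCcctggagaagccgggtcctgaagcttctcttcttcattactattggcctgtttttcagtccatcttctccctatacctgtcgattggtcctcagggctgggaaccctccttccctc
The AKT1 stretch was 88.7% G or C and held 7 GC boxes (overlapping matches counted), that of FOXO3 was 77.3% and held 5, and that of MTOR was 54% and held 1. Within the 300 bases searched around each start (250 before to 50 after), all 8 genes had at least 1 GC box, from 1 in PIK3CA and TSC2 to 7 in AKT1, where 44.6% of the 27305 RefSeq promoters of that length had one. In the number of CpG dinucleotides AKT1 (49) and FOXO3 (47) stood above 98.4% and 97.6% of those promoters, and MTOR (16) was near their median of 14. PIK3CA (22), AKT2 (27), TSC2 (36), PIK3CB (39) and PIK3R1 (42) lay between. PIK3R1, also called lower with shRNA3, stood above 94.3% of promoters and had 5 GC boxes, as many as FOXO3. Any part of promoter sequence in the changes was not tested.

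The pair of stretches printed next holds motifs found in a single member each. The PIK3CA promoter (chr3:179148197-179148226, plus strand) had the FOXO core, the letters GTAAACA or TGTTTAC, 149 bases before the RefSeq start site, and the TSC2 promoter (chr16:2047859-2047888, plus strand) had an E-box, the letters CACGTG, 114 bases before it. Both motifs lie downstream of where GENCODE release 29 starts the gene and within an exon of another annotated transcript of the same gene, so they are upstream of the RefSeq start only. Capitals mark the motif.
PIK3CA: agttcgttgttTGTTTACacgatgtgagcg
TSC2: atgcggccccgtCACGTGatgcaaggatcg
The FOXO core was in 3.41% of all promoters and the E-box in 7.43%, both strands counted, and none of the other members had either. A match in these letters describes the sequence only.

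Among the members, AKT2 and AKT1 had the highest transcript levels per length in NC, at 25.7 ± 0.444 and 21.8 ± 1.65 CPM per kb of principal transcript (SD, n = 3). PIK3CB (12.1 ± 0.549), MTOR (10.8 ± 1.12), FOXO3 (10.2 ± 0.935) and TSC2 (9.79 ± 1.19 CPM per kb) followed, and the libraries of neighbours in that order overlapped, which those of AKT2 and AKT1 did not. PIK3CA stood lower at 4.07 ± 0.42 and PIK3R1 lowest at 2.26 ± 0.0684 CPM per kb. In all 3 shRNA groups AKT1 was first, at 39.9, 42.6 and 51.9 CPM per kb, and PIK3R1 stayed last. The order depends on the length used, since with all annotated exons counted FOXO3 ranked first in NC and AKT1 had rank 5.

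**Figure D1:**
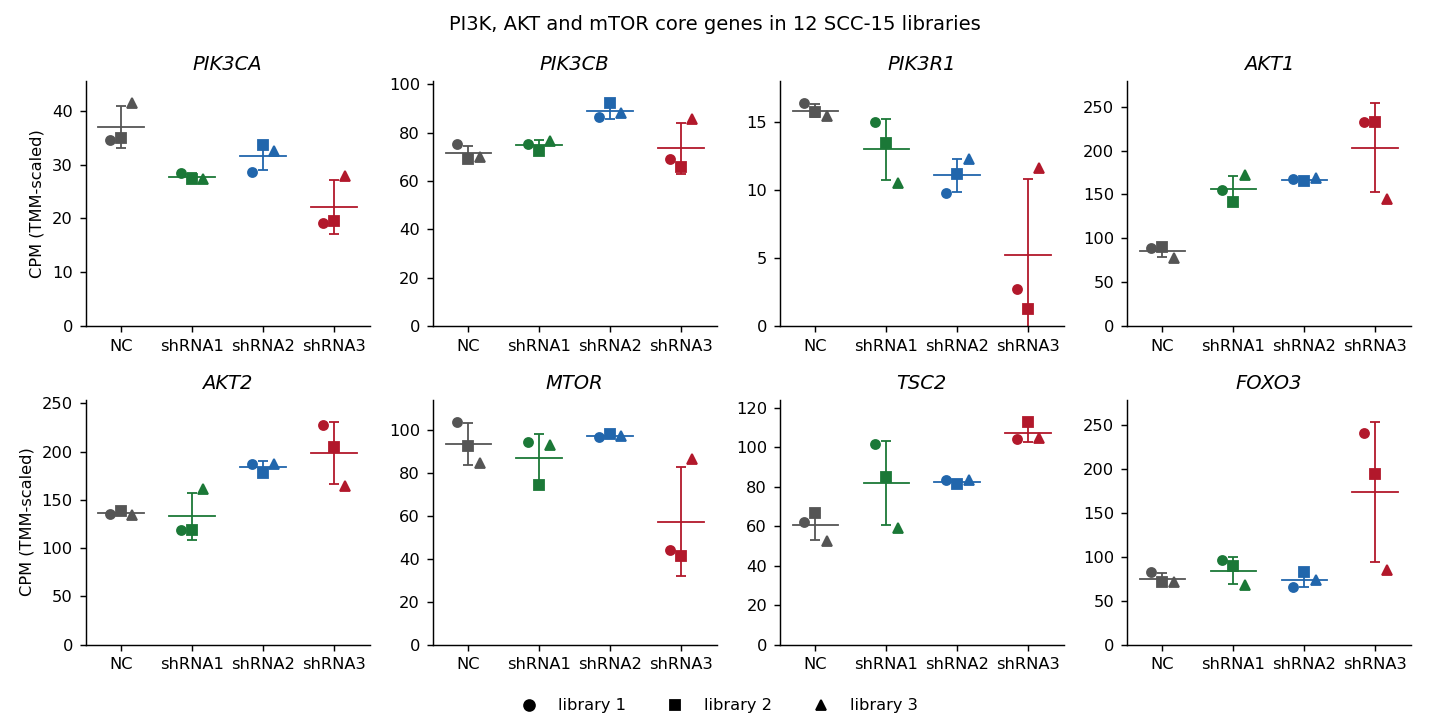
Level of each gene (CPM after TMM scaling, vertical axes starting at 0) in the 3 libraries of each group, with the mean (line) and SD (bar; the lower end of the PIK3R1 bar for shRNA3 falls below 0 and is not drawn). AKT1 was higher in all 9 shRNA libraries than in any NC library, and shRNA3 libraries 1 and 2 stood apart from library 3 in PIK3R1, MTOR and FOXO3.

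Calls were made with edgeR's quasi-likelihood test at a Benjamini-Hochberg adjusted p under 0.05 over all tested genes. The 3 comparisons share the NC libraries. With shRNA1, 1 of the 8 members was called (AKT1, higher), where 57.4% of all tested genes were and 26.8% were called higher. With shRNA2, 3 were called, all higher (AKT1, AKT2 and PIK3CB), where 53% of genes were called and 24.6% were called higher. With shRNA3, 7 of 8 were called, 4 higher (AKT1, AKT2, TSC2 and FOXO3) and 3 lower (PIK3CA, PIK3R1 and MTOR), where 53.9% of genes were called, 26.4% higher and 27.6% lower. Without shRNA3 libraries 1 and 2, that last count was 3, all higher (PIK3CB, AKT1 and TSC2), where 56.9% of the genes tested in that fit were called, 28.1% higher and 28.8% lower. The median absolute log2 fold change of the 8 members was 0.23, 0.38 and 0.78 with shRNA1, shRNA2 and shRNA3, against 0.92, 0.85 and 0.87 over all tested genes. For the mean of the 3 hairpins, 3 members were called (AKT1 and TSC2 higher, PIK3CA lower), where 60% of genes were, 27.9% higher and 32.2% lower. AKT1 was the only member called in the same direction with each hairpin, where 35.7% of genes were and 16% were called higher.

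PIK3CA (ENSG00000121879, chr3:179148114-179240093, plus strand, coordinates here and below on GRCh38 from GENCODE release 29) encodes the alpha catalytic subunit of PI3K. Its level was 34.6, 35.0 and 41.4 CPM in NC libraries 1 to 3, 28.5, 27.3 and 27.3 CPM with shRNA1, 28.7, 33.7 and 32.5 CPM with shRNA2, and 19.2, 19.4 and 28.0 CPM with shRNA3. Every shRNA library was below every NC library. The log2 fold change was -0.42 with shRNA1 (SE 0.17, adjusted p = 0.0557), -0.23 with shRNA2 (SE 0.17, adjusted p = 0.291) and -0.73 with shRNA3 (SE 0.17, adjusted p = 0.00378). It fell with shRNA3, and the mean of the 3 hairpins gave -0.46 (SE 0.14, adjusted p = 0.0122). Of all tested genes, 25.8% were lower in every shRNA library than in any NC library. Without shRNA3 libraries 1 and 2, the shRNA3 value was -0.37 (adjusted p = 0.0607). Without NC library 3, the highest of the 12, the mean over hairpins was -0.37 (adjusted p = 0.0857), and without a filter on low counts it was -0.43 (adjusted p = 0.0539). KCNMB3, on the opposite strand, shares 35.4% of the 50-base windows of PIK3CA exons and had 48 to 66 counts in NC and 2 to 46 in shRNA libraries. Its part in the PIK3CA values was not tested. The library kit named in the protocols does not mark strand, so strand cannot separate reads from the shared exon stretches.

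PIK3CB (ENSG00000051382, chr3:138652699-138834938, minus strand), the beta catalytic subunit, varied less. It stood at 75.2, 69.2 and 69.9 CPM in NC, 75.1, 72.4 and 76.5 CPM with shRNA1, 86.3, 92.1 and 88.0 CPM with shRNA2, and 69.0, 65.9 and 85.6 CPM with shRNA3. The libraries of shRNA1 and shRNA3 overlapped those of NC. PIK3CB rose with shRNA2 by 0.31 on the log2 scale (SE 0.12, adjusted p = 0.0493), and the values with shRNA1 and shRNA3 were 0.06 (adjusted p = 0.677) and 0.04 (adjusted p = 0.794). The shRNA2 call was lost when any NC or shRNA2 library or shRNA1 library 1 or 2 was left out, 8 of the 12 (adjusted p 0.0572 to 0.133), and under 3 other scalings, both other filters on low counts and the replicate block (log2 0.18 to 0.36, adjusted p 0.0712 to 0.458). Scaling by library totals alone turned the shRNA1 and shRNA3 values to -0.02 and -0.27, as upper-quartile scaling turned them to -0.11 and -0.07. shRNA3 library 3 alone gave 0.29 (adjusted p = 0.0421), with libraries 1 and 2 left out.

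PIK3R1 (ENSG00000145675, chr5:68215720-68301821, plus strand) encodes the main regulatory subunits, which stabilise the catalytic subunit, hold it inactive and bring it to phosphorylated receptors. Its level was 16.3, 15.7 and 15.4 CPM in NC, 15.0, 13.4 and 10.5 CPM with shRNA1, and 9.77, 11.2 and 12.2 CPM with shRNA2. With shRNA3 it was 2.74 and 1.24 CPM in libraries 1 and 2 and 11.6 CPM in library 3. All 9 shRNA libraries were below all NC libraries, as in 25.8% of all tested genes. Libraries 1 and 2 of shRNA3 were far below the other 7. PIK3R1 fell with shRNA3 (log2 fold change -1.59, SE 0.57, adjusted p = 0.0352), and its values with shRNA1 and shRNA2 were -0.29 (SE 0.55, adjusted p = 0.681) and -0.52 (SE 0.56, adjusted p = 0.46). Without shRNA3 libraries 1 and 2 the shRNA3 value was -0.42 (adjusted p = 0.117). Leaving out any of 8 single libraries (those of NC, shRNA1 2, shRNA2 2 or 3, shRNA3 1 or 2) also ended that call, with values of -1.61 to -1.08 and adjusted p of 0.0503 to 0.111, as did fitting only the libraries compared (adjusted p = 0.15) or no filter on low counts (adjusted p = 0.0682). Without shRNA3 library 3, by contrast, the mean over hairpins became -1.26 (adjusted p = 4.94e-06), against -0.80 (adjusted p = 0.136) with all libraries.

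AKT1 (ENSG00000142208, chr14:104769349-104795751, minus strand), the most widely expressed AKT kinase, was the member with the steadiest change. It stood at 88.4, 89.8 and 77.9 CPM in NC, 155, 142 and 172 CPM with shRNA1, 167, 165 and 168 CPM with shRNA2, and 233, 232 and 145 CPM with shRNA3. The lowest shRNA library, shRNA1 library 2, was above the highest NC library, and libraries 1 and 2 of shRNA3 were the highest of all. Of all tested genes, 19% were higher in every shRNA library than in any NC library. AKT1 rose 1.83-fold with shRNA1 (log2 0.87, SE 0.17, adjusted p = 0.00127), 1.95-fold with shRNA2 (log2 0.97, SE 0.17, adjusted p = 0.0007) and 2.38-fold with shRNA3 (log2 1.25, SE 0.18, adjusted p = 0.000123). From library 3 alone, without libraries 1 and 2, the shRNA3 value was 0.80. Scaled by library totals alone, the 3 values were 0.79, 0.83 and 0.88 (adjusted p = 0.000184, 0.000131 and 9.39e-05). An antisense gene, AL583722.2, shares 4.89% of AKT1 exon windows and had at most 74 counts in a library.

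AKT2 (ENSG00000105221, chr19:40230317-40285536, minus strand), the isoform best known for insulin-stimulated glucose uptake, varied between the hairpins. Its level was 136, 139 and 134 CPM in NC, 119, 119 and 161 CPM with shRNA1, 188, 177 and 188 CPM with shRNA2, and 228, 204 and 164 CPM with shRNA3. The shRNA1 libraries lay on both sides of NC. AKT2 rose with shRNA2 (log2 0.44, SE 0.15, adjusted p = 0.0331) and shRNA3 (log2 0.54, SE 0.16, adjusted p = 0.0111), and with shRNA1 the value was -0.03 (adjusted p = 0.871). The shRNA2 call was lost without any of 6 libraries, those of NC and shRNA2 (adjusted p 0.0562 to 0.0888), with library totals alone (log2 0.30, adjusted p = 0.0628), and with 2 other scalings, a mean of at least 50 counts or the replicate block (log2 0.33 to 0.43, adjusted p 0.0532 to 0.0983). With shRNA3, library totals alone gave 0.18 (adjusted p = 0.234), and leaving out libraries 1 and 2 gave 0.30 (adjusted p = 0.119).

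TSC2 (ENSG00000103197, chr16:2047465-2089487, plus strand), which with TSC1 switches off the mTOR complex 1 activator RHEB, was on average higher in every shRNA group. It stood at 61.9, 66.8 and 52.4 CPM in NC, 102, 84.6 and 59.0 CPM with shRNA1, 83.2, 81.3 and 83.1 CPM with shRNA2, and 104, 113 and 104 CPM with shRNA3. In shRNA1 only library 3 fell within the NC range, and the other 8 shRNA libraries were above it. TSC2 rose with shRNA3 (log2 0.83, SE 0.18, adjusted p = 0.00223) and for the mean of the hairpins (log2 0.57, SE 0.15, adjusted p = 0.00603), and the values with shRNA1 and shRNA2 were 0.44 (adjusted p = 0.0526) and 0.45 (adjusted p = 0.0501). From library 3 alone, without libraries 1 and 2, the shRNA3 value was 0.82. With all 3 libraries and scaling by library totals alone it was 0.49 (adjusted p = 0.0564), with a mean over hairpins of 0.39 (adjusted p = 0.0639). Without shRNA1 library 3, the shRNA1 value was 0.63 (adjusted p = 0.00298), and it was 0.46 (adjusted p = 0.0496) without shRNA3 library 2. The shRNA2 value passed the threshold without any of 5 libraries (shRNA1 1 or 3, or any of shRNA3; adjusted p 0.00925 to 0.0462). NTHL1, a DNA glycosylase gene on the opposite strand whose exons share 1.65% of TSC2 windows, stood at 17.8 to 18.1 CPM in NC and 27.2 to 65.2 CPM in shRNA libraries, with its lowest shRNA value also in shRNA1 library 3. PKD1, which shares 3.41%, was at 131 to 151 CPM in NC, 84.3 to 104 CPM with shRNA1 and shRNA2, and 254, 227 and 101 CPM in shRNA3 libraries 1 to 3. The part of reads from these neighbours in the TSC2 values was not tested, and with a kit that does not mark strand, strand cannot separate them.

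MTOR (ENSG00000198793, chr1:11106535-11262507, minus strand), the kinase of both mTOR complexes, was at 104, 92.7 and 84.4 CPM in NC, 94.3, 74.4 and 92.9 CPM with shRNA1, and 96.8, 97.9 and 97.2 CPM with shRNA2. With shRNA3 it was 43.9 and 41.4 CPM in libraries 1 and 2 and 86.7 CPM in library 3, which was inside the NC range. MTOR fell with shRNA3 (log2 -0.71, SE 0.24, adjusted p = 0.0294) although the libraries overlapped, and without libraries 1 and 2 the value was -0.08 (adjusted p = 0.668). The call was also lost without any of 5 single libraries (NC 1 or 2, shRNA2 3, shRNA3 1 or 2; log2 -0.72 to -0.47, adjusted p 0.0531 to 0.129) and with only the libraries compared (log2 -0.64, adjusted p = 0.136). With shRNA1 and shRNA2 the values were -0.10 (adjusted p = 0.739) and 0.06 (adjusted p = 0.866), the latter turning to -0.08 with library totals alone and -0.05 with upper-quartile scaling.

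FOXO3 (ENSG00000118689, chr6:108559835-108684774, plus strand), a transcription factor that AKT keeps out of the nucleus, differed widely among the shRNA3 libraries. Its level was 83.0, 71.4 and 70.8 CPM in NC, 96.0, 89.0 and 67.2 CPM with shRNA1, and 65.3, 83.0 and 72.9 CPM with shRNA2. With shRNA3 it was 241 and 194 CPM in libraries 1 and 2 and 85.2 CPM in library 3. Library 3 of shRNA3 was above NC by little, and the libraries of shRNA1 and shRNA2 overlapped NC. FOXO3 rose with shRNA3 (log2 1.21, SE 0.30, adjusted p = 0.00543), and without libraries 1 and 2 the value was 0.21 (adjusted p = 0.339). With shRNA1 and shRNA2 the values were 0.16 (adjusted p = 0.66) and -0.03 (adjusted p = 0.95), and upper-quartile scaling turned the first to -0.02. A processed copy on chromosome 17, FOXO3B, shares 15.7% of FOXO3 exon windows and was at no more than 8.35 CPM, with its lowest values in shRNA3 libraries 1 and 2, where FOXO3 was highest. AC026271.3, whose level is not given here, shares 10.9%, and 27.8% of the windows are shared with any other gene. The part of reads from such genes in the FOXO3 values was not tested.

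**Figure D2:**
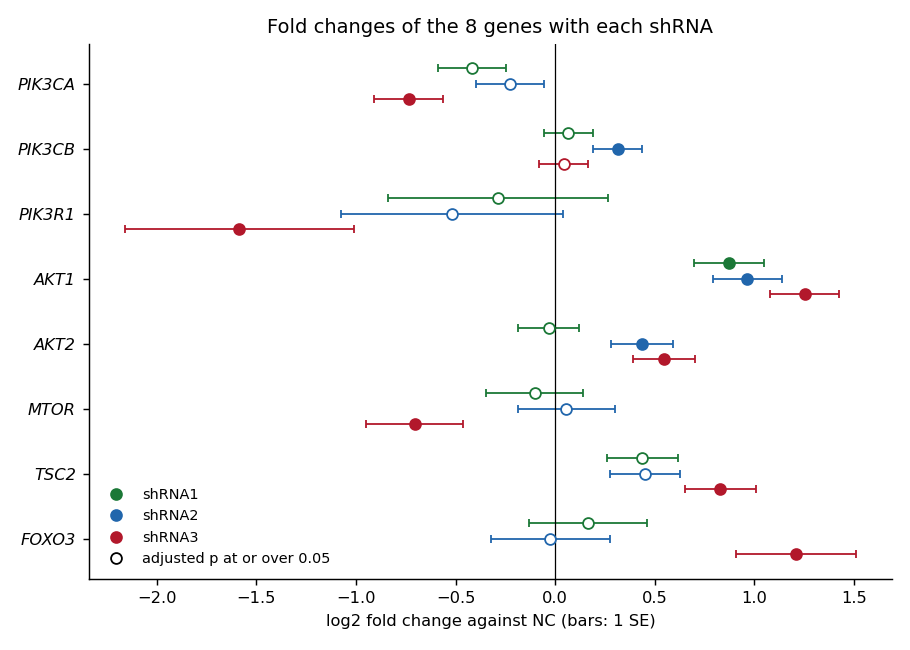
Log2 fold change of each gene against NC for shRNA1, shRNA2 and shRNA3 (horizontal axis), with bars of 1 SE; filled points have an adjusted p under 0.05 and open points do not. AKT1 is filled for all 3 hairpins, at 0.87, 0.97 and 1.25, and 7 of 8 genes are filled for shRNA3.

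The balance between paralogues and partners was followed as a ratio of counts within each library, which needs no scaling between libraries, and is described without a test. AKT1 counts were 0.627 ± 0.0392 of AKT2 counts in the NC group (SD, n = 3). The same ratio was 1.19 ± 0.12 for shRNA1, 0.906 ± 0.0206 for shRNA2 and 1.01 ± 0.125 for shRNA3, and all 9 shRNA libraries were above all NC libraries. PIK3CA counts were 0.519 ± 0.0671 of PIK3CB counts in NC, 0.371 ± 0.0127 with shRNA1, 0.356 ± 0.0207 with shRNA2 and 0.300 ± 0.0247 with shRNA3, and all 9 were below NC. So within both pairs the ratio of counts differed from NC in the same direction with every hairpin, toward AKT1 and away from PIK3CA. How many other pairs of genes differ from NC in this way was not counted. PIK3R1 counts relative to PIK3CA and PIK3CB together were 0.146 ± 0.00659 in NC, 0.127 ± 0.0225 with shRNA1 and 0.0917 ± 0.00864 with shRNA2. With shRNA3 that ratio was 0.0311 and 0.0145 in libraries 1 and 2 and 0.102 in library 3.

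**Figure D3:**
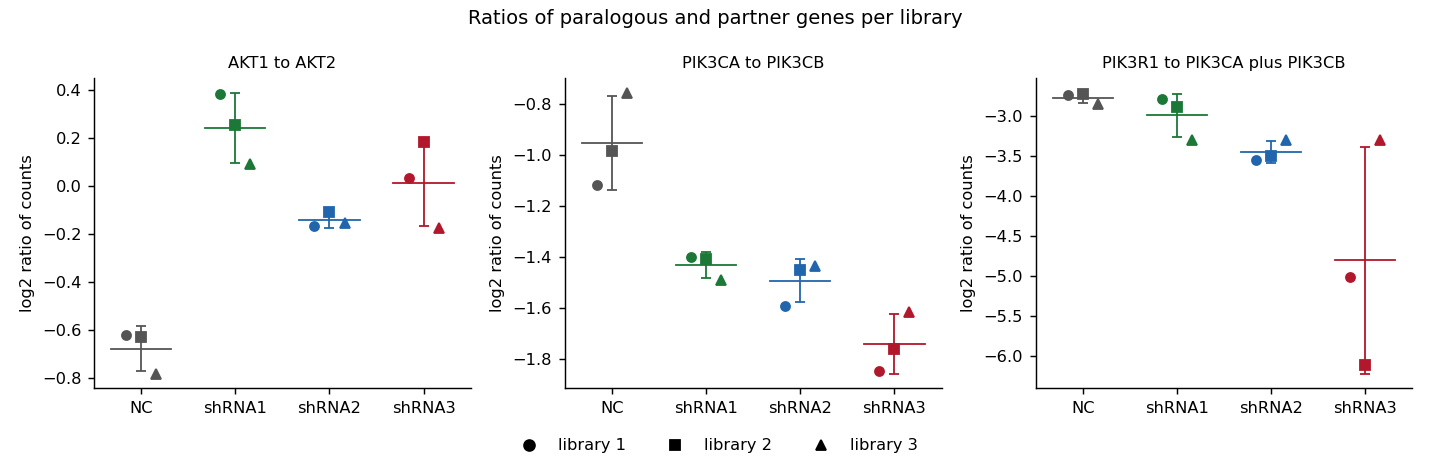
Log2 ratio of counts within each library (vertical axes, which do not start at 0) for AKT1 to AKT2, PIK3CA to PIK3CB, and PIK3R1 to the sum of PIK3CA and PIK3CB; points are libraries, lines means and bars SD. The mean log2 ratio of AKT1 to AKT2 was -0.68 in NC and 0.24, -0.14 and 0.01 with shRNA1, shRNA2 and shRNA3.

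Differences between hairpins were tested directly. Between shRNA1 and shRNA2 no member was called by edgeR, where 12.3% of genes were. AKT2 alone had an unadjusted p under 0.05 there (log2 -0.47 for shRNA1 against shRNA2, adjusted p = 0.0719). Between shRNA1 and shRNA3, 2 of 8 members were called, where 30% of genes were, 18.1% lower with shRNA1: AKT2 (log2 -0.58 for shRNA1 against shRNA3, adjusted p = 0.0201) and FOXO3 (log2 -1.04, adjusted p = 0.0258). Between shRNA2 and shRNA3 it was FOXO3 (log2 -1.23, adjusted p = 0.0386), where 8.34% of genes were called, 6.43% lower with shRNA2. All 3 differences were lower against shRNA3, and none was called without shRNA3 libraries 1 and 2 (log2 -0.32, -0.04 and -0.22, in that order), where 8.1% of genes were between shRNA1 and shRNA3 and 1.28% between shRNA2 and shRNA3. All 3 were also lost with library totals alone (adjusted p 0.0544 to 0.0933) and with only the libraries compared (adjusted p 0.147 to 0.206), a fit in which edgeR called none of the genes between shRNA1 and shRNA3 or between shRNA2 and shRNA3, with 4295 and 3186 at an unadjusted p under 0.05. Leaving out single libraries also ended them, any of 4 for AKT2 (shRNA1 1 or 2, shRNA3 1 or 2; adjusted p 0.0611 to 0.0826), any of 5 for FOXO3 against shRNA1 (shRNA1 1, 2 or 3, shRNA3 1 or 2; adjusted p 0.0582 to 0.101) and any of 10 for FOXO3 against shRNA2 (all but shRNA1 3 and shRNA3 3; adjusted p 0.0582 to 0.145), which the replicate block ended too (adjusted p = 0.0547).

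Over the 12 libraries, the genes with the pattern most like each member were found by Pearson correlation of log2 of CPM plus 1 among 10193 genes, as a description in which all points share the split between NC and shRNA and the 2 libraries that stood apart. For AKT1 they were HINT1 (r = 0.993) and ELP5 (0.992), and for AKT2 POLD1 (0.982) and ATF6B (0.982). For FOXO3 they were PI4K2A (0.984) and TICAM1 (0.981), for MTOR CHTF8 (0.986) and HIF1AN (0.980), and for TSC2 SURF1 (0.970) and SF3A2 (0.938). For the PI3K subunits they were SLC35F5 (0.973) and DENND4A (0.971) with PIK3CA, FKBP5 (0.967) and DUSP16 (0.960) with PIK3CB, and TDRD7 (0.992) and KIAA0040 (0.990) with PIK3R1. Among the members themselves, MTOR correlated with PIK3R1 at 0.919 and with FOXO3 at -0.928, and AKT1 with PIK3CA at -0.850.

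The surrounding pathway was read from 11 lists of 97 other genes, of which 95 were tested (PIK3CG and PIK3R5, at most 7 and 16 counts, were not). Of the 95, 52 were called with shRNA1 (28 higher, 24 lower), 47 with shRNA2 (22 higher, 25 lower) and 54 with shRNA3 (30 higher, 24 lower), close to the 57.4%, 53% and 53.9% of all tested genes. Without shRNA3 libraries 1 and 2, 62 of 96 were called with shRNA3 (35 higher, 27 lower), beside 56.9% of all genes. Their median log2 fold changes were 0.08, 0.06 and 0.26, against -0.02, -0.05 and -0.03 over all genes. Of these genes, 26 were called in the same direction with every hairpin. The genes named below are 6 chosen whatever their values (TSC1, RHEB, RPTOR, RICTOR, PDPK1 and FOXO1), the 12 of those 26 with the largest changes, and others named after their values were seen. All 12 kept their direction with shRNA3 when its libraries 1 and 2 were left out.

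**Figure D4:**
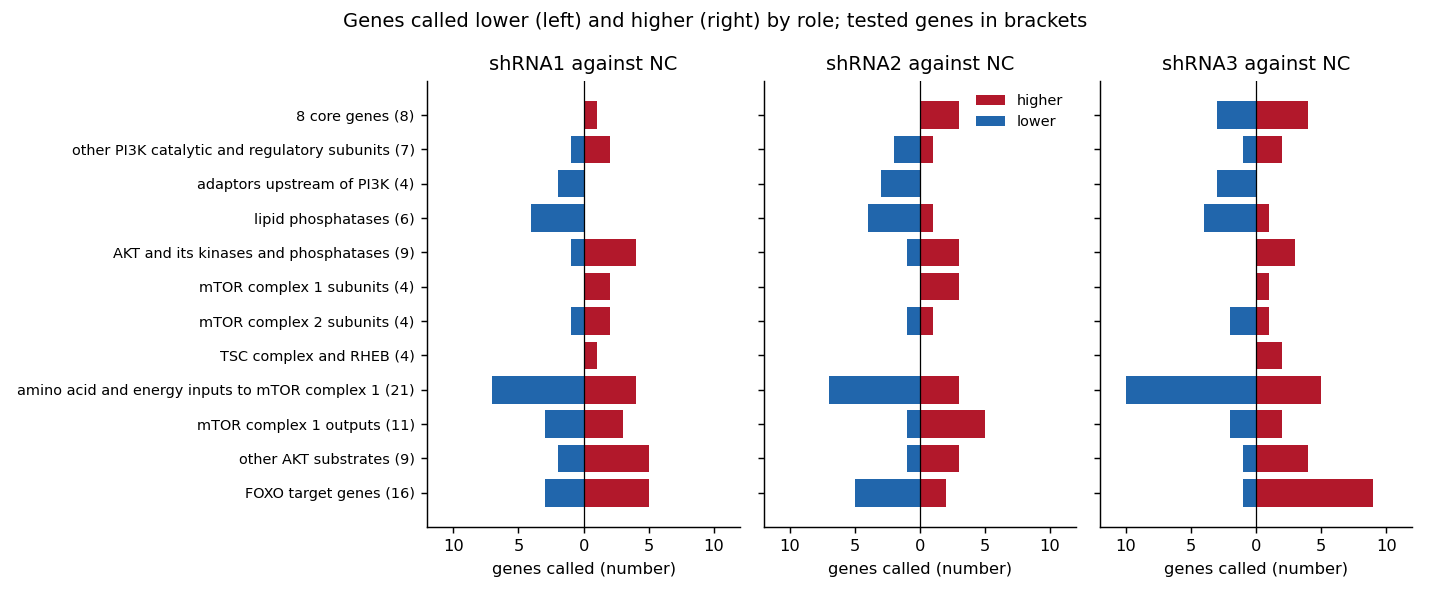
Number of genes called higher (right) and lower (left) at an adjusted p under 0.05 in each role of the pathway, for shRNA1, shRNA2 and shRNA3 against NC; numbers in brackets are genes tested. The inputs to mTOR complex 1 had 7, 7 and 10 of 21 genes lower, and the FOXO targets 5, 2 and 9 of 16 genes higher. Of all 17532 tested genes, 5363, 4978 and 4835 were called lower and 4693, 4312 and 4622 higher.

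Among the adaptors and lipid phosphatases upstream of AKT, most calls were lower. Over all tested genes 57.4%, 53% and 53.9% were called with shRNA1, shRNA2 and shRNA3, and 46.7%, 46.4% and 48.9% of those were higher. Of 7 other PI3K subunits 3 were called with each hairpin, with 2, 1 and 2 of them higher. PIK3C2B, a class II kinase, rose with each (log2 0.61, 1.60 and 1.20). PIK3CD, the delta catalytic subunit best known from leukocytes, was at 43.9 ± 1.04 CPM in NC and fell to 4.94 ± 0.108, 5.66 and 4.18 CPM with shRNA1, shRNA2 and shRNA3 (log2 -3.15, -2.95 and -3.40, adjusted p = 5.55e-07, 8e-07 and 4e-07). Of 4 adaptors, 2, 3 and 3 were called, all lower, and 3 with shRNA3 without libraries 1 and 2, where IRS2 was called and GAB1 was not. GAB2, a docking protein that binds the regulatory subunit, fell from 35.9 CPM to 3.02, 3.87 and 6.26 CPM, IRS2 fell with shRNA1 and shRNA2 (log2 -1.40 and -1.62), IRS1 with shRNA2 and shRNA3 (-0.60 and -1.03, the first lost without any NC or shRNA2 library, adjusted p 0.0638 to 0.0986), and GAB1 with shRNA3 (-1.37, or -0.46 without libraries 1 and 2, adjusted p = 0.156). IRS2 with shRNA3 was at log2 0.26 (adjusted p = 0.588) in all 3 libraries and at -1.19 without libraries 1 and 2, so its direction depended on those libraries. ERBB3, the receptor whose tail recruits PI3K and which is also on the FOXO target list, fell from 54.0 CPM to 2.44, 3.70 and 3.79 CPM (log2 -4.46, -3.87 and -3.83). The lipid phosphatases, which remove the signal that PI3K makes, were also mostly lower, with 4 of 6 called lower under each hairpin, or 3 with shRNA3 when libraries 1 and 2 were left out. INPP4A fell from 75.4 CPM to 22.6, 20.2 and 16.2 CPM, and INPPL1 and INPP5K also fell with every hairpin, though the shRNA3 call of INPP5K was lost without libraries 1 and 2 (adjusted p = 0.0831) or library 1 alone (adjusted p = 0.0515). INPP5D, a phosphatase best known from blood cells, rose with shRNA2 and shRNA3 (log2 1.59 and 1.82).

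Of 9 listed genes around AKT itself, 5, 4 and 3 were called with shRNA1, shRNA2 and shRNA3, of which 4, 3 and 3 were higher. Over all tested genes 57.4%, 53% and 53.9% were called, and 26.8%, 24.6% and 26.4% were called higher. PDPK1, the kinase that phosphorylates AKT in its activation loop, rose with shRNA1 (log2 0.62, adjusted p = 0.0135), with values of 0.05 and -0.30 for shRNA2 and shRNA3. That call was lost without NC library 3 (adjusted p = 0.0578) or shRNA1 library 1 (adjusted p = 0.0643), with library totals alone (adjusted p = 0.088) and with upper-quartile scaling (adjusted p = 0.0533). SGK1, a kinase related to AKT, rose with every hairpin (log2 2.64, 1.55 and 1.88).

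Around mTOR, RPTOR, the scaffold of complex 1, rose from 39.4 ± 3.29 CPM to 91.5 with shRNA1 (log2 1.22, adjusted p = 0.00151) and 80.2 CPM with shRNA2 (log2 1.03, adjusted p = 0.00454). With shRNA3 RPTOR was at 40.3, 36.8 and 76.0 CPM in libraries 1 to 3, so that libraries 1 and 2 were near its NC level, while MTOR in them was below its NC range. Without libraries 1 and 2 the RPTOR value went from 0.38 (adjusted p = 0.22) to 0.98. MLST8, a subunit of both complexes, rose with each hairpin (log2 0.72, 1.33 and 1.20). RICTOR, the scaffold of complex 2, rose with shRNA1 (log2 0.40, adjusted p = 0.0423), a call lost without any of 6 libraries (any of NC, shRNA1 1 or 2, shRNA2 3; adjusted p 0.0504 to 0.158), under 3 other scalings, both other filters and the replicate block (log2 0.22 to 0.42, adjusted p 0.0576 to 0.229). TSC1, the partner of TSC2, was at 37.4 CPM in NC and 36.8, 33.9 and 32.7 CPM with the hairpins (adjusted p = 0.915, 0.476 and 0.323), so with shRNA3 the test called TSC2 higher and made no call for TSC1. With library totals alone, TSC1 was called lower (log2 -0.55, adjusted p = 0.0116) and TSC2 was not called (adjusted p = 0.0564). That scaling moved the shRNA3 median of all genes from -0.03 to -0.35. Relative to that median, TSC2 stood at 0.86 in the main fit and 0.84 with library totals. RHEB rose with shRNA3 (log2 0.84, adjusted p = 0.0101), at 326, 309 and 153 CPM in libraries 1 to 3 against 146 ± 8.26 CPM in NC, and without libraries 1 and 2 the value was 0.09 (adjusted p = 0.593). The call was also lost with only the libraries compared (adjusted p = 0.052).

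The amino acid and energy inputs to mTOR complex 1 held 5 of the 12 genes named for the size of their change. Of 21 such genes, 11, 10 and 15 were called with shRNA1, shRNA2 and shRNA3, where 57.4%, 53% and 53.9% of all tested genes were. RRAGD, a Rag GTPase, was at 29.1 ± 2.71 CPM in NC and had no more than 2 counts in any shRNA1 or shRNA2 library, at least 194-fold and 171-fold lower against a floor of 3 counts per library, and 0, 5 and 2 counts in the shRNA3 libraries. SESN3, a sestrin that restrains complex 1, fell from 48.6 ± 1.04 CPM to 0.377, 0.320 and 1.88 CPM with shRNA1, shRNA2 and shRNA3, and CASTOR1, the arginine sensor, from 10.9 CPM to 0.715, 2.23 and 2.67 CPM. STK11, the kinase LKB1 that activates AMPK, fell from 148 ± 7.50 CPM to 13.8, 9.08 and 11.1 CPM (log2 -3.42, -4.03 and -3.73). DDIT4, a stress-induced inhibitor of complex 1 that acts through TSC2, rose from 133 CPM to 407, 491 and 880 CPM (log2 1.61, 1.88 and 2.72). Among the outputs, EIF4E, the cap-binding factor freed by complex 1, rose from 28.1 CPM to 90.3, 88.8 and 115 CPM, and its inhibitor EIF4EBP1 rose too (log2 0.52, 0.78 and 1.28). The shRNA1 call of EIF4EBP1 was lost without any NC library or shRNA1 library 3 (adjusted p 0.0588 to 0.0714), with upper-quartile scaling (adjusted p = 0.125) and with a mean of at least 50 counts (adjusted p = 0.0604).

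FOXO3 changes were set beside a list of 16 genes known as FOXO targets. With shRNA1, 8 were called (5 higher, 3 lower), with shRNA2 7 (2 higher, 5 lower) and with shRNA3 10 (9 higher and ERBB3 lower). Over all tested genes 57.4%, 53% and 53.9% were called, and 26.8%, 24.6% and 26.4% were called higher. The median log2 fold change with shRNA3 was 1.24, and without libraries 1 and 2 it was 0.31, with 12 of 16 called (7 higher, 5 lower), where 56.9% of all genes were called, 28.1% higher and 28.8% lower. BBC3, a pro-apoptotic gene, was at 16.4 ± 1.94 CPM in NC, and in shRNA3 libraries 1 to 3 at 156, 157 and 28.9 CPM, and KLF2, at 6.39 ± 1.61 CPM in NC, reached 67.1, 72.9 and 20.6 CPM. BBC3 and KLF2 were picked from the list after their values were seen. In both, libraries 1 and 2 were far above library 3, as in FOXO3 itself, and library 3 was still above NC. RHEB and PKD1, which are not on the list, were also far higher in libraries 1 and 2 than in library 3. Whether FOXO3 acted on its listed targets was not tested. TXNIP, an inhibitor of glucose uptake, had 2145 CPM in NC, and shRNA3 libraries 1 to 3 had 4377, 4100 and 524 CPM, so that libraries 1 and 2 lay above NC and library 3 below it, beside 337 and 393 CPM with shRNA1 and shRNA2. The shRNA3 value of TXNIP was log2 0.48 (adjusted p = 0.463), and without libraries 1 and 2 it was -2.0. TRIB1, a pseudokinase, was higher in every shRNA library than in NC, as were 19% of all tested genes. Its log2 values were 2.31, 1.85 and 3.38 from a level of 10.1 ± 0.384 CPM in NC. PDK4, which curbs glucose oxidation, had 0 counts in NC and rose to at least 5.27, 17.6 and 13.1 times the floor of 3 counts. FOXO1, another FOXO factor, rose with shRNA1 (log2 0.47, adjusted p = 0.0485) and shRNA3 (log2 0.54, adjusted p = 0.028). Those 2 calls were lost without any of 7 libraries for shRNA1 (NC 2 or 3, shRNA1 1 or 2, any of shRNA2; adjusted p 0.0561 to 0.188) and without NC library 2 or 3 for shRNA3 (adjusted p = 0.121 and 0.0999). Both were lost with library totals alone (log2 0.39 and 0.22, adjusted p = 0.165 and 0.434), with upper-quartile scaling (adjusted p = 0.185 and 0.0592) and with no filter on low counts (adjusted p = 0.0978 and 0.0625). The shRNA1 call was also lost with DESeq2 size factors, a mean of at least 50 counts or the replicate block (adjusted p 0.0613 to 0.0977), and the shRNA3 call with only the libraries compared (adjusted p = 0.0698).

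**Figure D5:**
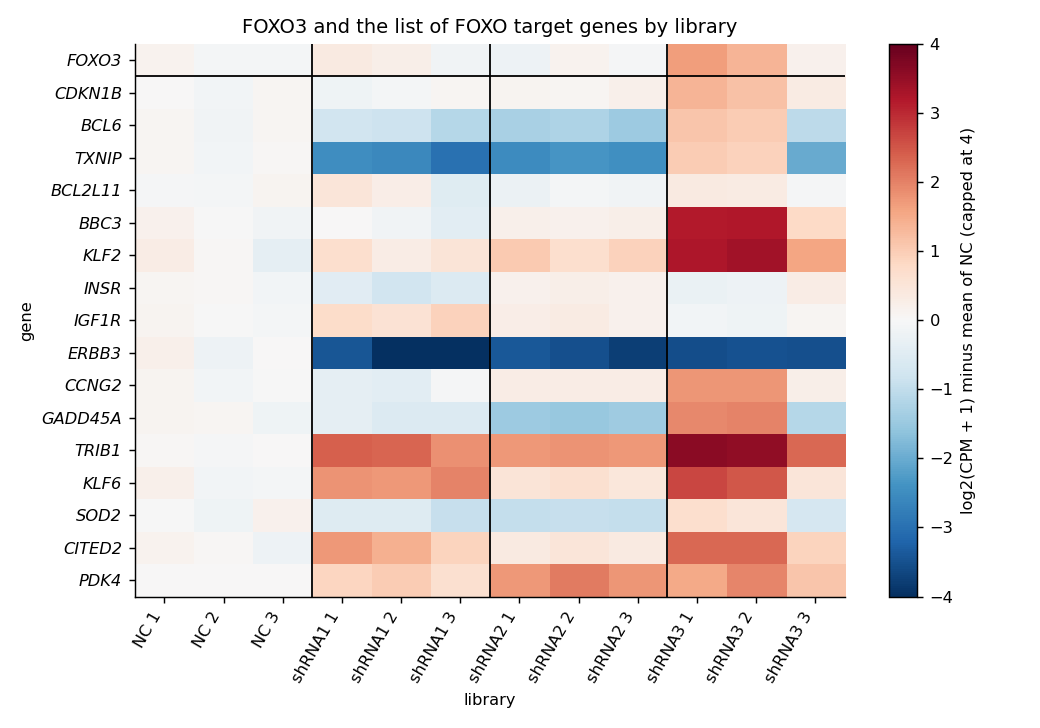
FOXO3 (top) and 16 listed FOXO target genes in each of the 12 libraries, coloured by log2 of CPM plus 1 minus the mean of NC (colour scale capped at 4 in both directions). Red marks higher than NC and blue lower; FOXO3, BBC3 and KLF2 are reddest in shRNA3 libraries 1 and 2, and TXNIP is blue in shRNA1, shRNA2 and shRNA3 library 3.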

How the data were processed

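The authors deposited 1 table of estimated counts per gene for the 12 libraries, not scaled to a common total, in which 13.8% of values are not whole. Per the submitters' processing notes, HISAT2, HTSeq 0.11.2 and GRCh38 were used; the annotation, any filter and whether counting was stranded are not given in the sources used here. Per the labels' protocols, the library kit was NEBNext Ultra RNA, which does not mark strand. Each column matched 1 sample title (columns not matched: 0). Symbols were found for 60643 of 61044 IDs; 27609 IDs were at 0 in all libraries.

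Values were rounded, scaled by TMM (factors 0.771 to 1.11) and filtered with filterByExpr (minimum count 10, minimum total 15), which left 17532 genes. With edgeR 4.0.16 under R 4.3.3, a robust two-sided quasi-likelihood test was fitted to all 12 libraries as 4 groups (8 residual degrees of freedom, common coefficient of biological variation 0.289), with Benjamini-Hochberg adjustment over all tested genes and a threshold of 0.05. The code was tested on simulated data. CPM values are TMM-scaled and given as mean ± SD. A fold against a group at or under 3 counts per library was computed against that floor, and floors cover counting error only. Shared exon windows (50 bases) were found on GENCODE release 29, and promoter motifs on RefSeq promoters of GRCh38.p14, where all 8 members matched.

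The members and gene lists were chosen with earlier results of these data known. Of the other pathway genes, 8 were chosen whatever their values (2 are not reported here), together with the 12 others of largest change (in the hairpin that changed them least) among those called in the same direction with all 3 hairpins at a mean of at least 1 CPM; likeness was sought among genes of at least 10 CPM. Replicate numbers were checked for pairing: deviations from group means correlated at a mean of -0.0107 between same-numbered libraries (18 pairs) and 0.00443 between others (36 pairs), so no pairing was assumed. Alternatives covered scaling, low-count filters, DESeq2 1.42.0, a replicate block, the libraries in the fit, thresholds and left-out libraries.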

Additional observations from a re-analysis of the deposited data

Results flagged for a closer look

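The effect of the hairpins on 2 members differed between groups in a direct test. AKT2 was lower with shRNA1 than with shRNA3 (log2 -0.58, edgeR adjusted p = 0.0201), with shRNA1 libraries at 119, 119 and 161 CPM and shRNA3 libraries at 228, 204 and 164 CPM. FOXO3 was lower with shRNA1 than with shRNA3 (log2 -1.04, adjusted p = 0.0258) and lower with shRNA2 than with shRNA3 (log2 -1.23, adjusted p = 0.0386). In each case the shRNA3 mean was carried by libraries 1 and 2, and without them the differences were -0.32 (adjusted p = 0.235), -0.04 (adjusted p = 0.95) and -0.22 (adjusted p = 0.588).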

How the results depend on the processing

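The rise of AKT1 against NC kept its direction and its adjusted p under 0.05 with each hairpin under every alternative run, with log2 values of 0.70 to 0.95 (shRNA1), 0.83 to 1.01 (shRNA2) and 0.80 to 1.44 (shRNA3); with a log2 change of at least 1 also required, the shRNA1 and shRNA2 calls were lost. Over all member results, 641 of 797 alternative values kept direction and side of the threshold, 100 lost it, 34 gained it and 22 changed sign; where no value shows why, the cause was not tested. Scaling by library totals alone moved the median log2 fold change of all genes from -0.02, -0.05 and -0.03 to -0.10, -0.18 and -0.35, and upper-quartile scaling moved it to -0.19, -0.15 and -0.14; relative to that median, AKT1 stood at 0.89, 1.01 and 1.22 with library totals and AKT2, TSC2 and FOXO3 with shRNA3 at 0.53, 0.84 and 1.14. Of the genes called with shRNA3, 48.9% were higher, and 35.1% with library totals.

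The number of members called with shRNA1 (1) was 2 with DESeq2 size factors, upper-quartile scaling, a mean of at least 50 counts, the DESeq2 Wald test or only the libraries compared, 3 without shRNA3 libraries 1 and 2, and 0 with a log2 change of at least 1. With shRNA2 (3) it was 1 with DESeq2 size factors, library totals, upper-quartile scaling, a mean of at least 50 counts or an adjusted p under 0.01, 6 with only the libraries compared, 5 without those 2 libraries and 0 with the log2 limit. With shRNA3 (7) it was 4, 3 and 3 under the stricter p, the log2 limit and without the 2 libraries. For the mean of the hairpins (3) it was 1 with the log2 limit and 6 without the 2 libraries; it uses all groups, so a fit to only the libraries compared does not apply. Between shRNA1 and shRNA2 (0) it was 1 with upper-quartile scaling or the Wald test and 2 with only the libraries compared or without the 2 libraries. Between shRNA1 and shRNA3 (2) it was 0 with library totals, only the libraries compared, the stricter p or without the 2 libraries, and 1 with the log2 limit. Between shRNA2 and shRNA3 (1) it was 3 with the Wald test and 0 with library totals, the block, only the libraries compared, the stricter p or without the 2 libraries. Not every changed count is listed here. Library totals alone also ended the shRNA3 calls of AKT2 and TSC2 and the call of TSC2 for the mean of the hairpins. Fitting only the libraries compared ended the shRNA3 calls of PIK3R1 and MTOR. No filter on low counts ended the shRNA3 call of PIK3R1 and the call of PIK3CA for the mean. Leaving out 1 library gave 1 to 3, 1 to 5, 5 to 7 and 2 to 7 members against NC (shRNA1, shRNA2, shRNA3, mean) and 0 to 2, 0 to 6 and 0 to 6 between hairpins. The share of all genes called moved too, over 48.1% to 73.1%, 43.9% to 70.2%, 45.9% to 73.1% and 50% to 74.2% against NC and 3.06% to 39.7%, 9.80% to 63.4% and 0% to 59.2% between hairpins, each highest without shRNA3 library 3; the share of 0% (edgeR, 4 of the libraries left out in turn) came with 3406 to 4248 genes at an unadjusted p under 0.05. With only the libraries compared it was 71.8%, 79.2% and 43.4% against NC, and without the 2 libraries 71.3%, 68.1% and 56.9%. The highest of these counts came without shRNA3 library 3, when for the mean of the hairpins MTOR (-0.39, adjusted p = 0.000853), FOXO3 (0.56, adjusted p = 0.000509), PIK3R1 and AKT2 (0.36, adjusted p = 0.00249) were called too. Pathway genes called were 34 for shRNA1 and 28 for the mean with the log2 limit (52 and 56), and 71 for shRNA2 with only the libraries compared (47); leaving out 1 library gave 44 to 77, 42 to 66, 46 to 73 and 46 to 78.

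With replicate number as a block, the members called were 1, 2, 7 and 3 against NC and 0, 2 and 0 between hairpins; with shRNA2 PIK3CB (adjusted p = 0.0712) and AKT2 (0.0565) were lost and TSC2 (0.0418) was gained. Only 3 of 12 libraries correlated best with one of their own number.

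Of the values that changed sign, 2 were called, both with shRNA3 when its libraries 1 and 2 were left out: IRS2 (from 0.26 to -1.19; -0.18 with library totals and -0.0015 to 0.66 over single libraries left out) and TXNIP (from 0.48 to -2.0). The others were small and none was called; a range is that of leaving out 1 library. They were PIK3CB with shRNA1 (library totals -0.021, upper quartile -0.11, mean of 50 counts -0.029), shRNA3 (-0.27, -0.067, -0.028, and -0.087 to 0.17) and the mean (library totals -0.04); AKT2 with shRNA1 (-0.19 to 0.052); MTOR with shRNA1 (-0.17 to 0.0099) and shRNA2 (library totals -0.078, upper quartile -0.045, mean of 50 counts -0.031, and -0.014 to 0.14); and FOXO3 with shRNA1 (upper quartile -0.015) and shRNA2 (no filter 0.017, and -0.11 to 0.066). Beyond the members they were INPP5D with shRNA1 (no filter 0.0026, and -0.11 to 0.088), TSC1 with shRNA1 (no filter 0.0018, and -0.13 to 0.11), RHEB with shRNA2 (-0.019 with DESeq2 size factors and its Wald test, library totals -0.11, upper quartile -0.080, mean of 50 counts -0.065, and -0.010 to 0.073), RPTOR with shRNA3 (-0.035 to 0.61), RICTOR with shRNA3 (only the libraries compared 0.025, and -0.14 to 0.066) and PDPK1 with shRNA2 (library totals -0.082, upper quartile -0.049, mean of 50 counts -0.035, and -0.010 to 0.12) and shRNA3 (0.011 without libraries 1 and 2).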
